A study of Mus musculus with 8 samples.

Results

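The 9 genes described here are widely used to tell apart classes of striatal interneurons: Sst, Npy, Nos1, Pvalb, Th, Vip, Cck, Kit and Calb2. They were chosen by name, and all 9 of them are among the 32285 genes of the count matrices. The nuclei came from the striatum of 32 mice aged 12 weeks, and each nucleus was profiled for RNA and open chromatin together (10x Multiome). The mice were of 8 inbred strains (A/J, C57BL/6, 129S1/SvImJ, NOD/ShiLtJ, NZO/HlLtJ, CAST/EiJ, PWK/PhJ and WSB/EiJ), with 4 mice of each, no transgene and no treatment. Each of 4 batches pooled 1 mouse of every strain, so a mouse is 1 strain in 1 batch. The labels write C57BL/6 with more than 1 substrain, and the shorter name is used here. The authors gave a cluster name to 55672 of 89339 barcodes, in 18 clusters. Of these nuclei 1222 were "Nxph1+ interneuron", 165 were "Sst+ interneuron" and 120 were "Chat+ interneuron".

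Interneurons are the sparse local neurons of the striatum, among a great majority of projection neurons. Textbook classes are the low-threshold spiking cells, which make somatostatin (Sst), neuropeptide Y (Npy) and neuronal nitric oxide synthase (Nos1); the fast-spiking cells, which make the calcium buffer parvalbumin (Pvalb); cells with tyrosine hydroxylase (Th), the first enzyme of dopamine synthesis; cells with calretinin (Calb2), another calcium-binding protein; cells with the peptides Vip or cholecystokinin (Cck); and the cholinergic cells, which make acetylcholine with the enzyme Chat. Kit encodes the receptor tyrosine kinase for stem cell factor.

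The median depth was 4280.5 UMIs (unique molecular identifiers, each 1 counted transcript molecule) per Nxph1+ nucleus, 4525 per Sst+ nucleus and 8370.5 per Chat+ nucleus, against 1432 to 7985 in the 15 other clusters. The names were checked against defining markers. Chat, Slc5a7, Slc18a3, Lhx8 and Isl1, all 5 cholinergic markers looked at, were highest in the Chat+ cluster. Of 6 markers of GABAergic interneurons 2 were highest in the Nxph1+ cluster, 2 in the Sst+ cluster, 1 in the Chat+ cluster and 1 in Unknown. Nxph1 was highest in the Nxph1+ cluster at 2703 CPM (counts per 1000000 UMIs of the cluster) and second highest in the Sst+ cluster at 1403 CPM. Lhx6, a transcription factor of interneurons born in the medial ganglionic eminence, reached 195 CPM in the Sst+ cluster and 25.6 CPM in the Nxph1+ cluster. Among the 55672 nuclei, 1517 barcode sequences occurred in more than 1 batch.

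The bases just before the listed transcription start of 4 of the genes are shown. Sst, Npy and Nos1 were detected together in the same nuclei, and Sst and Th share a short element. Sequences are from RefSeq on GRCm38.p6, 5′ to 3′ on the gene's own strand, 100 bases ending at the base before the start site, and capitals mark TGACGTCA, the cAMP response element.
Sst, chr16:23890845-23890944, minus strand: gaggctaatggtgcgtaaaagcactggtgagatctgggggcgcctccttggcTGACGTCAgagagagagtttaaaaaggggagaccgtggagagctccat
Th, chr7:142899996-142900095, minus strand: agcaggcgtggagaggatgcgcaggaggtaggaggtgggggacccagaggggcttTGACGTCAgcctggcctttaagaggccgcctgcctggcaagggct
Npy, chr6:49822610-49822709, plus strand: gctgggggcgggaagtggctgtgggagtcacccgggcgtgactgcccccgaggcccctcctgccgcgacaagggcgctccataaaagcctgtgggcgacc
Nos1, chr5:117866739-117866838, plus strand: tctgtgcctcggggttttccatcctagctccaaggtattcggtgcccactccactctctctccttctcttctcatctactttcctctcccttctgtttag
The element lay at bases -48 to -41 of Sst and -45 to -38 of Th, and these 2 of the 8 members with a window held it. It reads the same on both strands. Of all 32851 promoter windows (250 bases before to 50 after a start), 588 (1.79%) held it. A peak of the authors' open-chromatin peak list overlapped the windows of Sst, Th and Npy but not that of Nos1. Whether transcription of Nos1 begins at its listed start in these nuclei was not tested, so its window may not be the promoter in use. Over the 10 windows of these 8 members 7 were overlapped, against 53.1% of all windows.

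Sst, Npy and Nos1 were by far most abundant in the Sst+ cluster. Their levels there were 5275 CPM for Sst, 2521 CPM for Npy and 1403 CPM for Nos1. Sst was found in 162 of 165 nuclei (98.2%), Npy in 156 (94.5%) and Nos1 in 151 (91.5%), with medians of 19, 8 and 5 UMIs per nucleus. All 3 transcripts were found together in 142 nuclei (86.1%; 95% Wilson interval for Nos1 alone, the least often found, 86.3 to 94.9%). The other 6 members were near absent: Cck was found in 7 nuclei, Kit in 6, Pvalb in 2 and Th in 1, at 1 UMI each, and Vip and Calb2 in none, which allows a share of nuclei with a UMI of up to 1.82%. The cluster was made by the authors from the same counts, so these levels are a description and were not tested.

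**Figure D1:**
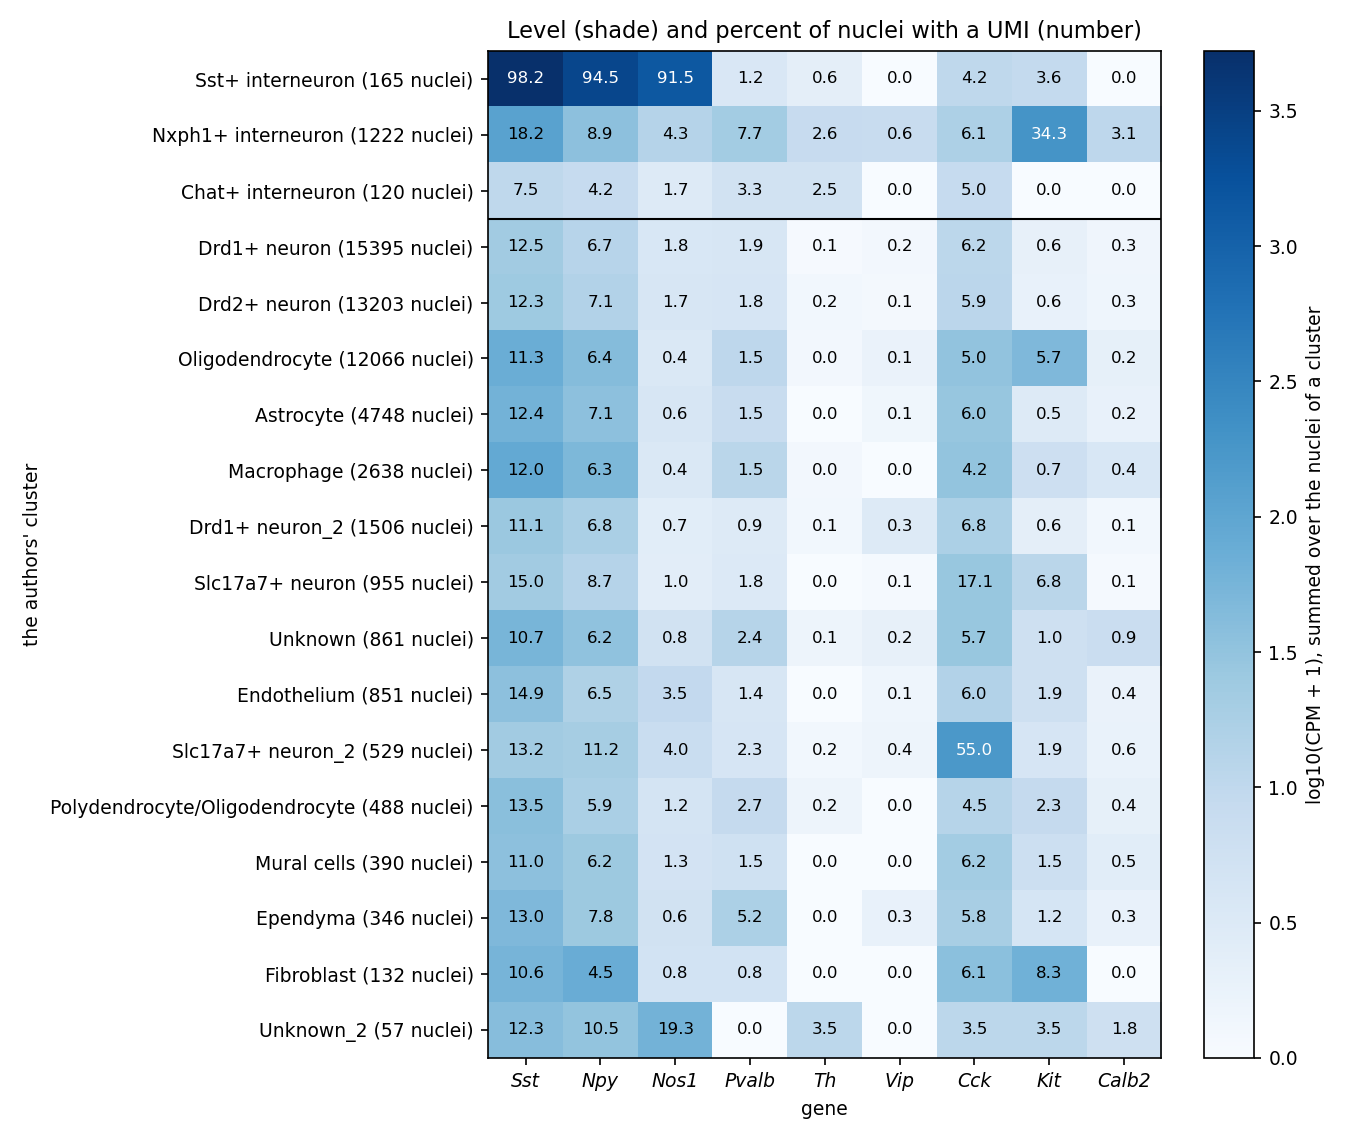
Level of the 9 genes in each of the 18 clusters (rows; the 3 interneuron clusters are above the line), as log10(CPM + 1) by shade, with the percent of nuclei that hold at least 1 UMI printed in each cell. Sst, Npy and Nos1 are above 90% in the Sst+ cluster, Kit reaches 34.3% in the Nxph1+ cluster, and Cck reaches 55.0% in Slc17a7+ neuron_2.

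In the Nxph1+ cluster Kit was the member found most often. It was found in 419 of 1222 nuclei (34.3%; 95% Wilson interval 31.7 to 37.0%) at 196 CPM, with 266 nuclei holding 2 or more UMIs. Sst followed with 222 nuclei (18.2%) at 112 CPM, and 33 of those held 5 or more UMIs. Npy was found in 109 nuclei (8.92%), Pvalb in 94 (7.69%), Cck in 75 (6.14%), Nos1 in 53 (4.34%), Calb2 in 38 (3.11%), Th in 32 (2.62%) and Vip in 7 (0.573%). Of the 38 nuclei with Calb2 25 were of NZO/HlLtJ, where it was found in 8.20% of nuclei (0 to 10.65% per mouse). None was of 129S1/SvImJ or CAST/EiJ. Vip was concentrated in a pair of nuclei with 10 or more UMIs, the highest with 16.

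A share of nuclei with a UMI is read here against the shares in other clusters. Free RNA can give UMIs to nuclei that do not make a transcript, but its part was not tested. In the 15 clusters that are not interneurons Sst was found in 10.6 to 14.97% of nuclei, with a median of 12.3%, whatever the cell type, and Npy in 4.55 to 11.2% (median 6.68%). Macrophages, with a median of 1432 UMIs, held Sst in 12.0% of nuclei, and Drd1+ neurons, with a median of 6505 UMIs, in 12.5%. The share of Nxph1+ nuclei with Sst lay above that range, and the share with Npy inside it. With nuclei thinned to 1000 UMIs the share with Sst was 6.37%, inside the range of 1.15 to 8.68% over the other clusters. The share with Cck (6.14%) was close to the median of 5.99% over the other clusters. Pvalb, Th, Kit, Calb2 and Vip had medians of 1.54%, 0.0414%, 1.54%, 0.289% and 0.118% there, below their shares in the Nxph1+ cluster. Nos1, with a median of 1.05%, was also found in 19.3% of the 57 nuclei of Unknown_2.

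Chat+ nuclei held little of any member. Sst was found in 9 of 120 nuclei (7.5%), Cck in 6, Npy in 5, Pvalb in 4, Th in 3 and Nos1 in 2. Kit, Vip and Calb2 were found in none, which allows a share of nuclei with a UMI of up to 2.5%. With a median of 8370.5 UMIs these were the deepest nuclei, and their shares of Sst, Npy and Cck were below the medians of the other clusters. No nucleus held all of Sst, Npy and Nos1, or any 2 of them, and 94 of the 120 held no member.

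Outside the interneurons 1 member had its highest level in another named type. Cck reached 164 CPM and 55.0% of nuclei in Slc17a7+ neuron_2, a cluster of neurons with the vesicular glutamate transporter Slc17a7, and 17.1% in Slc17a7+ neuron. Kit was also found in fibroblasts at 63.0 CPM, in 8.33% of 132 nuclei, and in oligodendrocytes at 46.6 CPM. Th was nominally highest in Unknown_2, on 2 UMIs.

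Genes with the most similar pattern over the 18 clusters (Pearson's r of log2(CPM + 1), a description over clusters that share libraries and differ in depth) were as follows. For Sst these were Npy (r = 0.971), 1110004F10Rik (0.912) and Crhbp (0.881). For Npy they were Sst, Galr1 (0.894) and Chodl (0.879), and for Nos1 they were Gm26995 (0.958), Nxph2 (0.926) and Tecta (0.906). The nearest to Kit were Ctxn3 (0.818), Svep1 (0.730) and Pthlh (0.726), to Vip Trh (0.840), to Th Gprin2 (0.910), to Pvalb Chchd4 (0.822), to Calb2 Nup50 (0.821), and to Cck 9130024F11Rik (0.779), Slc30a3 (0.775) and Slc17a7 (0.774). Galr1, Chodl and Nxph2 were highest in the Sst+ cluster, at 102, 179 and 385 CPM.

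**Figure D2:**
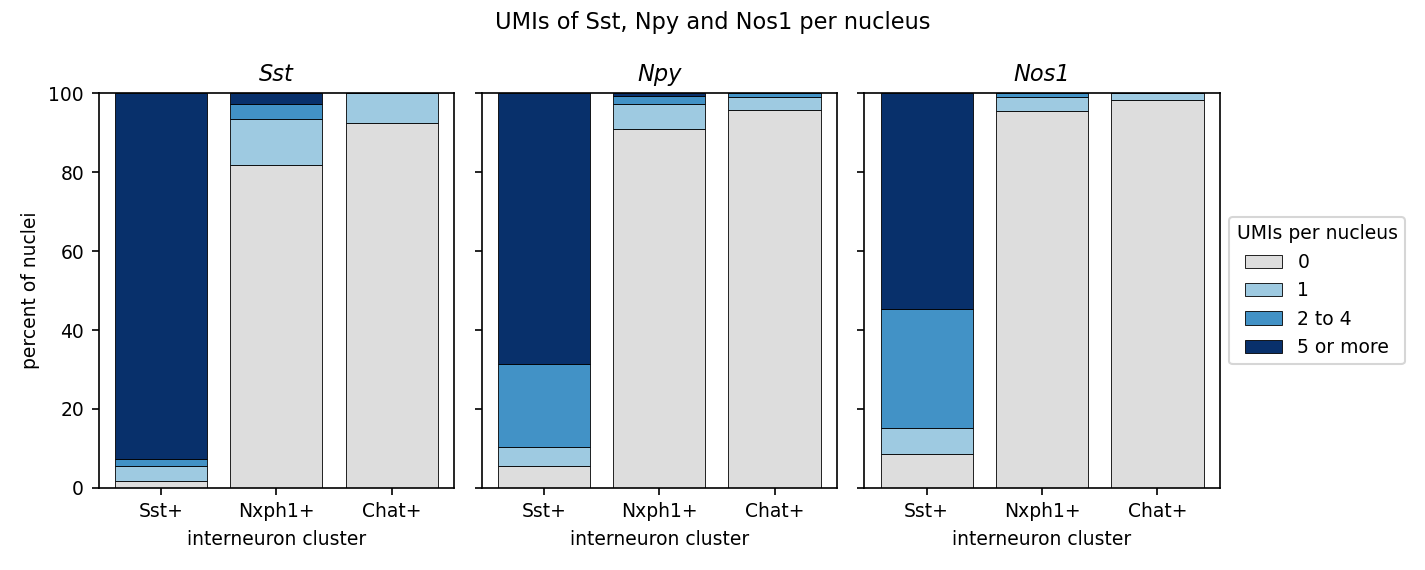
Percent of nuclei (y) with 0, 1, 2 to 4 or 5 or more UMIs of Sst, Npy and Nos1 in the 3 interneuron clusters (x). Of the 165 Sst+ nuclei 153 hold 5 or more Sst UMIs, against 33 of 1222 Nxph1+ nuclei and none of 120 Chat+ nuclei.

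Nuclei with much Sst also occurred inside the Nxph1+ cluster, and they differed from the Sst+ cluster. The 33 Nxph1+ nuclei with 5 or more Sst UMIs came from 19 mice and held Sst at 2264 CPM. Npy was found in 15 of them (45.5%) but Nos1 in 1 and Kit in 2 (6.06%). In the 1000 Nxph1+ nuclei with no Sst UMI, Npy was found in 7.90%, Nos1 in 3.90% and Kit in 36.5%. Chodl, a marker of the Nos1 class of cells, had no UMI in the 33 nuclei and 179 CPM in the Sst+ cluster. No Nxph1+ nucleus held Sst, Npy and Nos1 together. These groups of nuclei were defined by their Sst count and were not tested.

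It was then tested, mouse by mouse in the Nxph1+ cluster, whether pairs of members fall in the same nucleus more or less often than independence gives. The test was a two-sided sign-flip permutation test over mice on the difference in the share of nuclei with the second gene, and p-values were adjusted (Benjamini-Hochberg) over the 26 of 36 pairs that enough mice allowed. Kit and Sst shared fewer nuclei: 54 held both, where 71.3 were expected. Sst was found in 12.9% of nuclei with Kit and in 20.9% of those without, a mean difference per mouse of -7.42 ± 11.8 points (SD, n = 32), negative in 21 mice and positive in 11 (permutation p = 0.00105, adjusted 0.0273). The pair kept its direction with 2 UMIs of each required (5 nuclei against 16.8 expected) and when nuclei were thinned to 2000 UMIs (18 against 32.8), and the difference was negative in 8 of 8 strains. With the strain as the unit its adjusted exact p was 0.0885. Its unadjusted exact p was then the lowest that 8 strains allow, so this setting cannot show whether the call holds. Without batch 2 or batch 4 its adjusted permutation p was 0.0855 and 0.107.

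Npy and Calb2 shared 1 nucleus where 3.11 were expected (permutation p adjusted 0.0471, lower in 9 of the 16 mice and higher in 0), and that call did not hold without any 1 batch. A mouse with no nucleus holding both genes can only give a difference of 0 or below. For so rare a pair the test therefore cannot tell avoidance from low counts. Kit with Calb2 (2 nuclei against 7.73 expected) and Kit with Nos1 (8 against 14.1) had adjusted permutation p-values of 0.0556 and 0.0668. Calb2 and Nos1 were rare here too, so the same limit weighs on both pairs. Sst with Npy was found in 30 nuclei against 20.4 expected, 8.04 ± 18.5 points more often per mouse (n = 28), with an adjusted permutation p of 0.127. Kit with Th was found in 19 nuclei against 11.3 expected, with an adjusted permutation p of 0.203. Kit and Pvalb were found together in 35 nuclei against 35.7 expected. In the Chat+ and Sst+ clusters no pair could be tested.

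**Figure D3:**
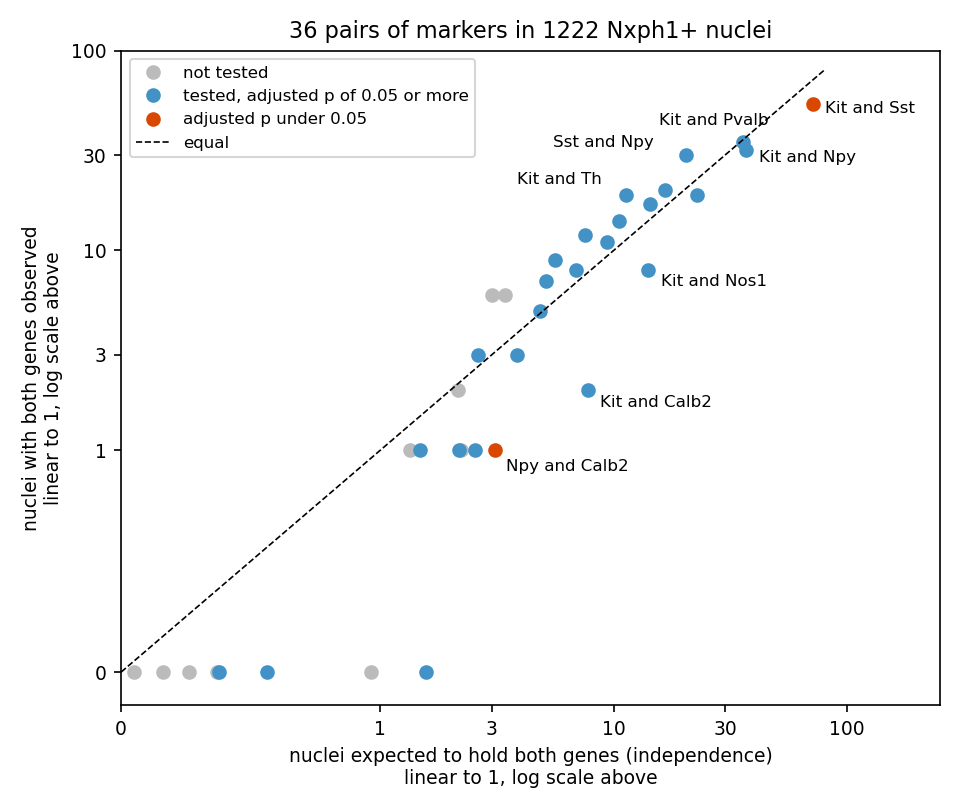
Number of Nxph1+ nuclei that hold both genes of a pair (y) against the number expected if the genes were independent (x), for all 36 pairs; the dashed line is equality, and both axes are linear to 1 and logarithmic above. Kit and Sst (54 against 71.3) and Npy and Calb2 (1 against 3.11) are the 2 called pairs, and both lie below the line. The call of Npy and Calb2 cannot be told from an effect of low counts.

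Many genes differed in the Nxph1+ cluster between nuclei with and without Kit. The 4 members that could be compared in this way were found in 419 (Kit), 222 (Sst), 109 (Npy) and 94 (Pvalb) nuclei, so their counts of genes do not rank them. Nuclei with and without a Kit UMI were summed per batch and compared in edgeR's quasi-likelihood test with batch as a block (4 sums against 4). Of 8245 genes 1253 differed (15.2%), 630 higher (7.64%) and 623 lower (7.56%) in nuclei with Kit. Both sets had nearly the same depth, with medians of 4313 and 4235 UMIs, and both came from all 32 mice.

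Pthlh, the gene of parathyroid hormone-related protein, showed how far the sets stand apart. It was at 100, 115, 105 and 109 CPM in the 4 batches with Kit and at 5.11, 5.18, 20.8 and 5.94 CPM without. The batches did not overlap. The log2 fold change was 3.91 (SE 0.27, edgeR adjusted p = 4.44e-14). Hapln1, a link protein of the extracellular matrix, was at 92.3 ± 31.7 CPM (SD, n = 4 batches) with Kit and 7.41 ± 6.98 without, a log2 fold change of 3.97. Egfr, the epidermal growth factor receptor, Opn3, an opsin, and Gna14, a G protein subunit, were higher by 3.53, 3.51 and 3.43 on the log2 scale. Egfr was not called without batch 2 or without batch 4.

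The genes lower in nuclei with Kit were led by Ankfn1 (log2 fold change -5.36), the axon guidance ligand Slit1 (-5.16) and Fign (-4.62). Ankfn1 was at 3.40, 9.94, 0 and 0 CPM with Kit and at 192, 170, 193 and 107 CPM without, again with no overlap. Sst itself was at 27.2, 29.8, 82.8 and 36.9 CPM with Kit and at 140, 82.2, 359 and 229 CPM without. It was lower in 4 of 4 batches, by 2.19 on the log2 scale (SE 0.18, edgeR adjusted p = 2.33e-12), and the lowest batch without Kit lies just under the highest batch with it. The call was lost with no replicate block.

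A list of 26 interneuron genes (transmitter enzymes, transcription factors, channels and peptides) showed the same division, and it is described by its counts. Of its 19 tested genes 12 were higher and 4 lower with Kit, against 15.2% of all genes, with a median log2 fold change of 0.97 against -0.00 over all genes. The higher ones hold Nxph1 (5571 ± 670 against 1493 ± 458 CPM), the neuregulin receptor Erbb4 (10970 against 3044 CPM), and the developmental transcription factors Maf, Prox1, Nkx2-1, Sox6 and Lhx6, with log2 fold changes of 2.59, 2.28, 2.28, 1.27 and 1.42. The lower ones were Satb1 (-1.51), Reln (-1.43), the potassium channel gene Kcnc2 (-1.43) and the glutamate receptor gene Grik1 (-2.01). Lhx6 was not called without the 3 mice that had the most Nxph1+ nuclei (adjusted p = 0.0672 in edgeR). The 6 markers of GABAergic interneurons summed to 15180 to 19580 CPM over the batches with Kit and 4448 to 7616 without. Over all Nxph1+ nuclei without Kit the sum was 4804 CPM. Among the clusters that are not interneurons only Drd1+ neuron_2 (5095 CPM) and Unknown (5739 CPM) were above that. Of 10 cholinergic genes 2 were tested, and Lhx8 was higher with Kit (1.30), but not called with 2 UMIs required (0.75).

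Summed markers of some other cell types moved with Kit. Projection neuron markers (10 genes) were at 1604 to 1806 CPM over the batches with Kit and 1096 to 1539 without, astrocyte markers (3 genes) at 86.0 to 107 CPM with and 40.1 to 71.2 without, and mural cell markers (2 genes) at 29.5 to 45.9 CPM with and 7.82 to 20.8 without. These 3 sets did not overlap. Oligodendrocyte markers (4 genes) were at 791 to 1526 CPM with Kit and 1068 to 1596 without, neuroblast markers (3 genes) at 113 to 184 CPM with and 177 to 243 without, and excitatory neuron markers (4 genes) at 3.11 to 18.3 CPM with and 11.7 to 32.3 without, all overlapping. No gene of these 6 lists was at 0 in either set. Their part in the division was not tested.

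**Figure D4:**
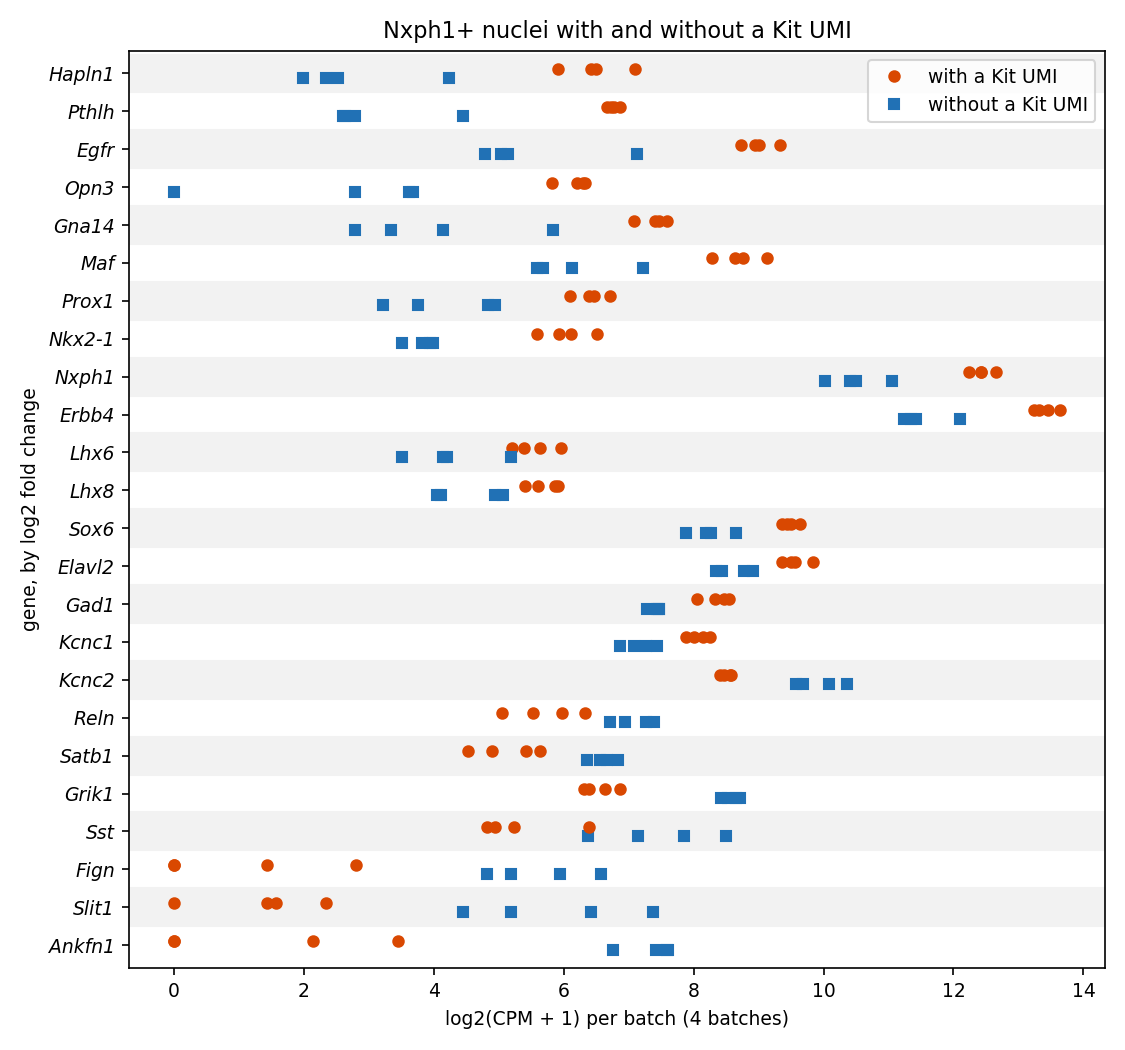
Levels of the named genes in Nxph1+ nuclei with (circles) and without (squares) a Kit UMI, as log2(CPM + 1) on the x axis, 1 point for each of 4 batches; genes on the y axis are ordered by their log2 fold change. Pthlh and Hapln1 are at the top, Ankfn1 and Slit1 at the bottom, and of the genes plotted only Sst overlaps between the sets of batches.

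Nuclei with Pvalb were compared in the same way. Of 6494 genes 352 differed (5.42%), 168 higher (2.59%) and 184 lower (2.83%) in the 94 nuclei with a Pvalb UMI. Kcnc2, which encodes a fast potassium channel typical of fast-spiking cells, was at 1669, 1943, 1746 and 2470 CPM with Pvalb and at 497, 632, 748 and 797 CPM without. No batch overlapped, and the log2 fold change was 1.58 (SE 0.14, edgeR adjusted p = 2.75e-11). Kcnc1, a channel of the same family, was higher by 1.07. Adamtsl5, Fign, 6330411D24Rik, Gpc5 and Hs3st1 were higher by 2.84, 2.69, 2.38, 2.06 and 1.97, and Ankfn1, Adamtsl1 and Dpyd were lower, with log2 fold changes of -3.60, -2.94 and -2.91. Fign, Kcnc2 and Satb1 were higher with Pvalb and lower with Kit, while Ankfn1 and Reln were lower and Kcnc1 and Sox6 higher with both. Between the batches with and without Pvalb, summed markers did not overlap for projection neurons (808 to 1245 against 1278 to 1688 CPM), neuroblasts (105 to 136 against 175 to 222), cholinergic cells (19.7 to 32.5 against 40.7 to 59.6, with 2 of 5 genes at 0 in nuclei with Pvalb) and excitatory neurons (0 to 6.55 against 9.46 to 30.3, with 3 of 4 at 0). Their part in the division was not tested.

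Nuclei with Pvalb were deeper, with a median of 5016.5 UMIs against 4196. With every nucleus thinned to 2000 UMIs 19 genes differed, and Kcnc2, Kcnc1, 6330411D24Rik, Gpc5, Ankfn1 and Dpyd were not called, with log2 fold changes of 0.59, 0.80, 1.46, 0.83, -1.20 and -0.80. Satb1, Sox6 and Nos1ap, called higher with Pvalb at 1.05, 0.59 and 0.78 on the log2 scale, changed sign on thinning (-0.79, -0.04 and -0.17, none called). Gpc5 changed sign when 2 UMIs were required. Without batch 2 the calls of Satb1, Sox6, Nos1ap and Reln were lost and 145 genes differed, without batch 4 those of Gpc5, Sox6, Nos1ap and Reln with 196 genes, and without batch 3 that of Gpc5. Without the 3 mice with most Nxph1+ nuclei 170 genes differed, and Adamtsl1, Nos1ap, Sox6 and Reln were not called (edgeR adjusted p of 0.073, 0.258, 0.406 and 0.116). Adamtsl1 was lower in 3 of 4 batches and was also not called with 2 UMIs required or with no replicate block (edgeR adjusted p of 0.0828 and 0.303). Kcnc2 was not called with strains as the unit (1.21, edgeR adjusted p = 0.153). Of the 17 tested genes of the interneuron list 4 were higher (Sox6, Satb1, Kcnc1 and Kcnc2) and Reln was lower, with a median of 0.45 against 0.01 over all genes. Among 21 genes of receptors, ligands and synthesis partners of the members, 4 were tested and Nos1ap was the 1 called.

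Nuclei with Sst differed from those without in 56 of 7324 genes (0.765%), 37 higher (0.505%) and 19 lower (0.259%). Of the 222 nuclei with Sst 142 held 1 UMI. Satb1, a chromatin organiser needed for Sst interneurons, was at 112, 183, 223 and 101 CPM with Sst and at 57.7, 62.8, 64.1 and 52.0 CPM without. The batches did not overlap, and the log2 fold change was 1.30 (SE 0.19, edgeR adjusted p = 4.97e-06). Grin3a, an NMDA receptor subunit, was higher by 1.41, Fign by 2.60, Gm28175 and B130024G19Rik by 1.57 each and Gulp1 by 1.34. Rmst, Col11a1 and Dach2 were lower, with log2 fold changes of -1.54, -1.29 and -1.26. Kit (-0.69) and Erbb4 (-0.48) were lower and Grik1 higher (1.00).

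The call of Kit was lost on thinning and without batch 2, where 31 genes differed. Without batch 2 Col11a1 and Dach2 were also lost, without batch 1 B130024G19Rik and Dach2, without batch 3 Erbb4, B130024G19Rik and Dach2 (36 genes), and without batch 4 Gm28175. The calls of Kit, Col11a1 and Grik1 were lost without the 3 mice with most Nxph1+ nuclei (edgeR adjusted p of 0.0972, 0.123 and 0.814), with log2 fold changes of -0.57, -1.06 and 1.16. Grin3a was not called on thinning (1.40, edgeR adjusted p = 0.0544), and Fign neither with strains as the unit nor with no replicate block (edgeR adjusted p of 0.367 and 0.357). With 2 or more Sst UMIs set against none, 103 genes differed. Depth differed by a little, with medians of 4701.5 and 4185 UMIs. Of the 17 tested genes of the interneuron list 2 were higher and 1 lower (median -0.22 against 0.01 over all genes), and of the 6 tested receptor and synthesis genes and the 3 tested cholinergic genes none was called.

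Nuclei with Npy differed in 11 of 6600 genes (0.167%), 9 higher (0.136%) and 2 lower (0.0303%). Of the 109 nuclei with Npy 75 held 1 UMI, and their share lay inside the range over clusters that are not interneurons. Tox3 was at 141 ± 59.1 CPM with Npy and 42.9 ± 8.58 without (n = 4 batches), a log2 fold change of 1.68 (SE 0.26, edgeR adjusted p = 0.00164). Pde11a (2.11), Tmem132c (1.43), Satb1 (1.19) and Itpr1 (1.01) were also higher, and Foxp2 (-1.43) and Car10 (-1.28) lower. Tox3 was not called with 2 UMIs required or on thinning (edgeR adjusted p of 0.357 and 0.876). Over the alternatives that could be fitted, Satb1 and Foxp2 each lost the call in 9 of 12, Car10 in 7 of 12, Tmem132c in 7 of 11, Itpr1 in 6 of 12 and Pde11a in 2 of 7. The number of calls moved with the samples used: 3 genes were called without batch 3, 3 without batch 4 and 40 without batch 2. Without the 3 mice with most Nxph1+ nuclei 26 were called, 10 of them higher with Npy. Of 16 tested genes of the interneuron list Satb1 was the 1 called, and of 5 receptor and synthesis genes and 2 cholinergic genes none was. Nos1, Th, Vip, Cck and Calb2 were found in too few nuclei per batch for such a comparison, as were all 9 members in Chat+ nuclei.

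Strain was compared next, with counts summed per mouse within a cluster (10 or more nuclei) and a test of any difference among the 8 strains (7 degrees of freedom, batch as block, edgeR's quasi-likelihood test, adjusted over all genes). In Nxph1+ interneurons 61 of 3987 genes differed (1.53%), and neither of the 2 members that passed the filter on low counts was among them (Kit adjusted p = 0.261, Sst adjusted p = 0.664 in edgeR; 1 of the 2, Kit, had an unadjusted p under 0.05). The share of Nxph1+ nuclei with a UMI of each member was compared over mice as well, by permuting strain within batch. None of 9 was called (0 of 9; 1 at an unadjusted p under 0.05). Kit had the lowest permutation p, 0.0175 (adjusted 0.157), with mean shares per mouse of 23.9% in NZO/HlLtJ, 28.3% in PWK/PhJ and 29.7% in NOD/ShiLtJ against 40.2 to 53.9% in the other 5 strains.

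Some mice had a far larger share of Nxph1+ nuclei than others. The 3 mice with over 4% of their nuclei in the Nxph1+ cluster were the NZO/HlLtJ mouse of batch 2 (10.7%), the NOD/ShiLtJ mouse of batch 1 (4.66%) and the PWK/PhJ mouse of batch 4 (4.64%), and 11.2 to 22.7% of their Nxph1+ nuclei held Kit. The other 29 mice had 1.10 to 3.71% of nuclei in the cluster, and 15.8 to 87.0% of those held Kit (median 40%). Some mice outside the 3 fell inside the range of 11.2 to 22.7%, though none was as low as 11.2%. They were the PWK/PhJ mouse of batch 2 (15.8%), the NOD/ShiLtJ mouse of batch 2 (17.1%) and the NZO/HlLtJ mouse of batch 1 (20.3%). These are of the same strains as the 3. Without the 3 mice the edgeR adjusted p of Kit in Nxph1+ interneurons was 0.653.

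Kit in oligodendrocytes had the largest F of the strain term among the members tested in any cluster. Oligodendrocytes make the myelin of the central nervous system and are the third largest cluster here, with 12066 nuclei and 1640 UMIs in the median one. Kit was at 143, 149, 155 and 172 CPM in the 4 CAST/EiJ mice and at 54.7, 86.5, 97.6 and 128 CPM in the 4 PWK/PhJ mice. It was at 9.01, 10.8, 12.5 and 16.5 CPM in the 4 NZO/HlLtJ mice. Every CAST/EiJ mouse was above, and every NZO/HlLtJ mouse below, all 28 mice of the other 7 strains.

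The remaining 5 strains lay between, with means of 24.6 ± 3.3 CPM in 129S1/SvImJ, 24.8 ± 5.62 in A/J, 37.1 ± 14.4 in C57BL/6, 40.8 ± 10.3 in NOD/ShiLtJ and 42.9 ± 17.7 in WSB/EiJ (SD, n = 4 each), and neighbours among these overlapped. The strain means ran from 12.2 ± 3.18 to 155 ± 12.2 CPM, 12.7-fold apart, with a fitted span of 3.58 on the log2 scale (F = 48.9, edgeR adjusted p = 2.01e-26). Of all 9082 genes tested in oligodendrocytes 3161 differed between strains (34.8%), with a median span of 0.68. Kit was 1 of 4 members tested there, and Sst, Npy and Cck were not called (edgeR adjusted p of 0.535, 0.866 and 0.813). The call held in all 10 alternatives, with the highest edgeR adjusted p at 7.45e-17.

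The share of nuclei was likewise highest in CAST/EiJ and PWK/PhJ and lowest in NZO/HlLtJ. Kit was found in 179 of 1073 CAST/EiJ oligodendrocytes (16.7%; 95% Wilson interval 14.6 to 19.0%), in 10.1% of PWK/PhJ and in 1.81% of NZO/HlLtJ ones (1.21 to 2.70%), while median depth ranged from 1535 to 1697 UMIs over the strains. All came from the authors' oligodendrocyte cluster, so their oligodendrocyte transcripts follow from that choice and do not show where the Kit UMIs arose. Mbp, the gene of myelin basic protein, was found in all 684 with Kit and in 99.8% of those without. Their median depth over all genes was 1740.5 UMIs with Kit and 1634 without. Nxph1 was found in 0.731% of oligodendrocytes with Kit and in 0.720% of those without, Lhx6 in none of the 684, and the precursor marker Pdgfra in 1.02% and 0.518%. Erbb4, which oligodendrocytes held in any case, was at 3015 CPM with Kit (91.4% of nuclei) and 2177 CPM without (86.9%). It was higher with Kit in each strain, from 3067 against 2546 CPM in 129S1/SvImJ to 5766 against 2729 in NZO/HlLtJ (23 nuclei with Kit). By strain, Nxph1 was found in 0 of 179 CAST/EiJ nuclei with Kit and in 3 of 100 NOD/ShiLtJ ones, and Pdgfra in 0 of 179 and 2 of 100. The part of other cell types in the Kit level was not tested.

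Kit in Nxph1+ interneurons did not follow this order. Its means there were 332 ± 130 CPM in CAST/EiJ, 178 ± 121 in PWK/PhJ and 204 ± 121 in NZO/HlLtJ, and the highest was 402 ± 173 in A/J. A model of both clusters with the mouse as block tested whether strain differences depend on the cluster. Kit was called (F = 8.43, edgeR adjusted p = 0.00115), among 387 of 7053 genes (5.49%), and Sst and Npy, the other members tested, were not (edgeR adjusted p of 0.760 and 0.343). This model was added after seeing the data.

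**Figure D5:**
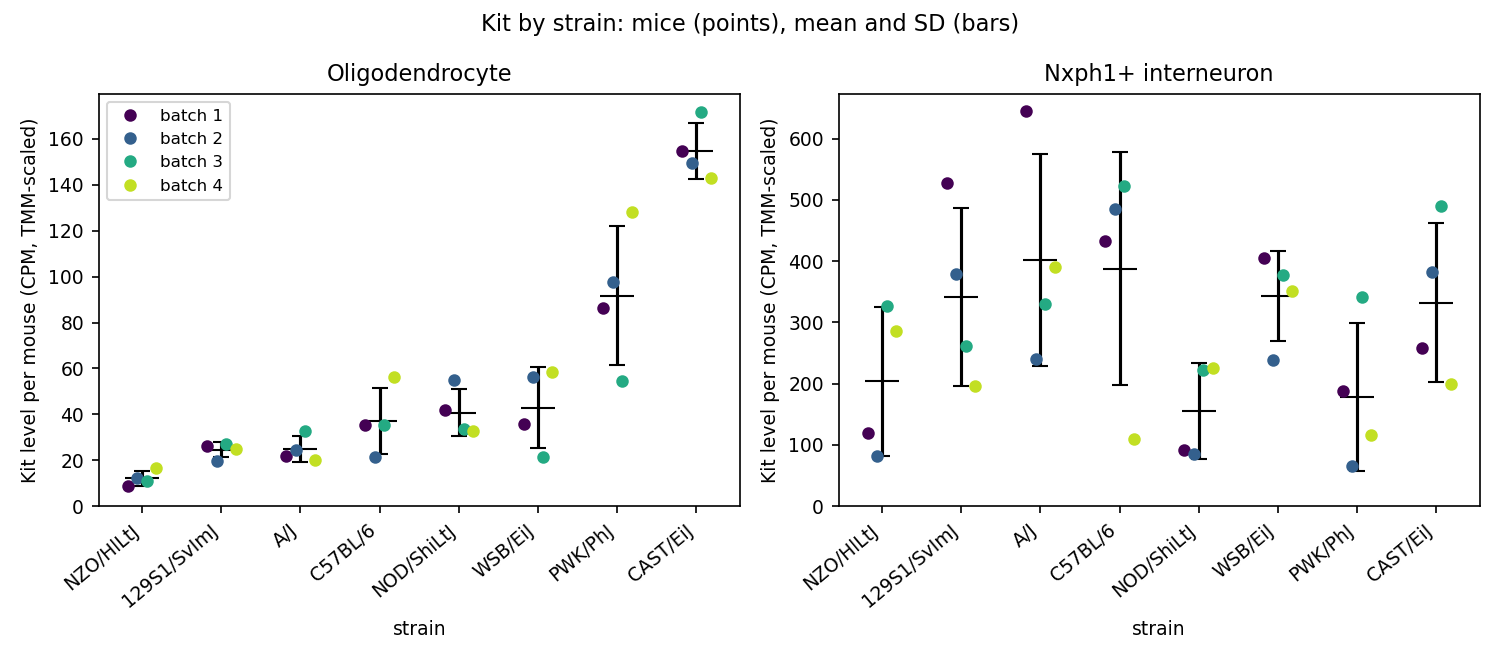
Kit level per mouse (y, CPM after TMM scaling) by strain (x), in oligodendrocytes (left) and Nxph1+ interneurons (right); points are mice coloured by batch, bars the mean and SD of 4 mice, and strains are in the order of the oligodendrocyte means in both panels. The 4 CAST/EiJ mice sit between 143 and 172 CPM on the left, above all others, and the strains overlap on the right.

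Nos1 differed between strains at a low level in both large projection neuron clusters. Over the 15 clusters that are not interneurons its level had a median of 3.585 CPM, and the source of its UMIs was not tested. In Drd1+ neurons, where 8283 of 13431 genes differed (61.7%), Nos1 was at 1.05 ± 0.450 CPM in CAST/EiJ and 1.29 ± 0.471 in C57BL/6 against 2.36 to 3.93 CPM in the means of the other strains (edgeR adjusted p = 0.00043). It rested on 288 UMIs, 1 to 34 per mouse, and was not called without batch 1 (edgeR adjusted p = 0.0608). In Drd2+ neurons, where 55.9% of genes differed, Nos1 ran from 1.21 ± 1.14 CPM in PWK/PhJ to 4.85 ± 2.73 in NZO/HlLtJ (edgeR adjusted p = 0.0321), and was not called without batch 1, 2 or 3 or with no replicate block (adjusted p of 0.114, 0.0992, 0.0656 and 0.0739). In each of these clusters the other 4 members tested were not called. In astrocytes (21.5% of genes called) 0 of 3 members tested differed, and in macrophages (24.8%) 0 of 1, with 0 at an unadjusted p under 0.05 in edgeR.

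With all nuclei of a mouse summed, where 66.7% of genes differed between strains, 4 of the 7 members tested were called: Kit (edgeR adjusted p = 7.53e-05), Nos1 (0.0118), Sst (0.0225) and Npy (0.0313). In such sums, fewer cells of a type and less RNA per cell cannot be told apart. Sst had its lowest mean in A/J at 37.6 ± 6.93 CPM and its highest in PWK/PhJ at 64.3 ± 14.1. The share of nuclei in the Sst+ cluster was 0.183% in A/J, 0.406% in PWK/PhJ and 0.520% in NZO/HlLtJ, where 20 of 36 came from 1 mouse. Outside the 3 interneuron clusters Sst and Npy were not called (edgeR adjusted p of 0.538 and 0.707), while Kit (6.95e-08) and Nos1 (0.0193) were. Sst, Npy and Nos1 each lost the call without batch 2 (edgeR adjusted p of 0.111, 0.231 and 0.169), and Sst also without batch 3 (0.162) or 4 (0.123), Npy without batch 4 (0.103) and Nos1 without batch 3 (0.105). Calb2, Cck and Pvalb were not called (0.0534, 0.270 and 0.466).

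Within the Sst+ cluster the strains were compared over the 27 mice with 3 or more nuclei, a test added after seeing the data. Sst averaged 4088 ± 2391 CPM in 129S1/SvImJ (n = 3), the lowest strain, and 7904 ± 4128 CPM in PWK/PhJ (n = 4), the highest, with overlapping mice. Npy averaged 1106 ± 396 CPM in C57BL/6 and 1229 ± 734 in 129S1/SvImJ against 2320 to 3641 CPM in the other strains. Nos1 was lowest in 129S1/SvImJ at 980 ± 116 CPM and A/J at 986 ± 96.3, and highest in PWK/PhJ at 1889 ± 744. The adjusted permutation p-values were 0.495, 0.0873 and 0.0873, so none of the 3 was called (0 of 3, and 0 at an unadjusted p under 0.05).

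Among other genes of the members' pathways, the receptors, ligands and synthesis partners (21 genes) were tested in all nuclei for 16, and 13 of those differed between strains, beside 66.7% of all genes. In Drd1+ neurons 11 of 13 differed, beside 61.7% of all genes, among them the receptor genes Sstr2, Sstr5, Npy1r, Npy5r, Vipr2 and Cckbr and the Kit ligand gene Kitl. In oligodendrocytes Nos1ap was the 1 of 4 called, beside 34.8%, and in Nxph1+ interneurons none of 3 was, beside 1.53% (0 of 3 in edgeR, and 0 of 15 interneuron-list genes). Npy2r was highest in the Sst+ cluster, at 47.0 CPM.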

How the data were processed

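Nuclei were counted by the authors as UMI counts per gene and barcode, and the deposited matrices and cluster names were used as they are; bcl2fastq 2.20.0.422, Cell Ranger ARC 2.0.0, GRCm38 and mm10 are named in the submitters' processing notes, for all strains alike. How doublets were treated is not given in the sources used here, and no caller was run. A mouse is a strain within a batch, so batch numbers pair the strains by the labels' pooling and enter as the replicate block. Counts were summed per mouse or batch and tested with edgeR 4.0.16 (TMM, filterByExpr, robust quasi-likelihood, Benjamini-Hochberg over all genes, threshold 0.05) in R 4.3.3; DESeq2 1.42.0 was an alternative. The edgeR steps were tested on simulated data. Pairs and shares used permutation tests (100000 resamples) coded with numpy 2.4.6. Pairs needed at least 10 mice with 3 nuclei on each side, and shares used mice with at least 10 Nxph1+ nuclei. Wilson intervals were computed in scipy 1.17.1. Splits needed 10 nuclei per batch on each side. Their sums were per batch and were not matched by mouse. Nuclei with Npy came from 28 mice and nuclei with Pvalb from 29, against 32 for those without. Named genes of a split are the 5 called higher and the 3 called lower with the largest fold and at least 50 CPM in the higher set, plus called list genes. Members and lists were chosen with earlier results of these data known. Wilson intervals and limits from a count of 0 cover counting error only. Some genes of the lists are counted but not reported here by name.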

Additional observations from a re-analysis of the deposited data

Results flagged for a closer look

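Kit over all nuclei was at 10.1 CPM in the 129S1/SvImJ mouse of batch 1, against 6.54 to 7.13 CPM in the other 3 mice of the strain. Kit over all nuclei was at 14.3 CPM in the CAST/EiJ mouse of batch 1, against 17.0 to 17.5 CPM in the other 3. Each stood apart from its group by Dixon's criterion, among 56 groups of 4 mice examined, where chance gives about 1 in 20. The strain differences of Kit in oligodendrocytes and in Nxph1+ interneurons differed from each other (edgeR adjusted p = 0.00115 for the strain by cluster term).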

How the results depend on the processing

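The 7 strain calls of members became 3 without batch 2, the lowest of the left-out batches, and 7 members stayed highest in an interneuron cluster. The 2 called pairs became 1 with 2 UMIs required, 1 after thinning to 2000 UMIs and 0 with strains as the unit, and 0 to 2 with a batch left out. The total of 1672 genes over the splits was 831 in DESeq2, 642 thinned and 977 with strains as the unit. For Sst, 56 genes became 18 in DESeq2, 103 with 2 UMIs, 25 thinned and 35 by strain, and 31 to 56 with a batch left out. For Npy, 11 became 43 with no expression filter, 5 in DESeq2 and 3 thinned, 3 to 40 with a batch left out and 26 without the 3 mice with most Nxph1+ nuclei. For Pvalb, 352 became 139 in DESeq2, 140 with 2 UMIs, 19 thinned, 132 by strain, 145 to 379 with a batch left out and 170 without those 3 mice. For Kit, 1253 became 669 in DESeq2, 595 thinned, 796 by strain and 904 without those 3 mice. With no replicate block, the Sst, Npy and Pvalb counts were 9, 1 and 190, and the strain call of Npy over all nuclei had an edgeR adjusted p of 0.287. The difference for Kit and Th turned to -1.13 points with 2 UMIs, and that for Kit and Nos1 to 0.55 points thinned. Between nuclei with and without Pvalb, log2 fold changes turned to -1.22 for Gpc5 with 2 UMIs, and to -0.17 for Nos1ap, -0.0388 for Sox6 and -0.79 for Satb1 thinned. The cause was not tested. Without the expression filter Sst and Npy over all nuclei were not called (edgeR adjusted p of 0.0528 and 0.0691). Nos1, Th, Vip, Cck and Calb2 were found in fewer than 10 nuclei of at least 1 batch and allowed no split.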
